A study of Mus musculus with 200 samples.

Results

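Caveolae are flask-shaped pits of the plasma membrane that store membrane, buffer tension and carry cargo across cells. Caveolins are inserted in the membrane, cavins form the coat around them, and the ATPase EHD2 sits at the neck and holds the pit at the surface. In the brain, caveolae are best known from vascular smooth muscle and from endothelial cells, where the blood-brain barrier keeps their number low. The 6 genes described here, Cav1, Cav2, Cavin1, Cavin2, Cavin3 and Ehd2, are the caveolins and cavins found outside muscle and the neck ATPase. They were taken by gene symbol from the 56941 genes of the deposited tables, and they were chosen with their difference between closed head injury (CHI) and sham mice in view, so that difference is given below as a description. Where members past a threshold are counted in it, the count is no independent evidence. All 6 passed the filter on low counts in every comparison.

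The measurements come from bulk RNA sequencing of mouse brain, for 200 mice of both sexes (102 female, 98 male) aged 3.3 to 7.67 months. Tissue was taken 9, 24 or 72 h after CHI or after sham surgery, which shared the anaesthesia and scalp incision but not the impact. The mice fall into 4 strains by label, C57BL/6J and 3 strains named for the interleukin-1 receptor (IL-1R1), with the suffixes gKO, eRestore and nRestore. The labels do not say which alleles these 3 carry, which cells regain the receptor or on what background. At 9, 24 and 72 h the CHI and sham groups held 15 and 6, 14 and 6, and 14 and 6 C57BL/6J mice. They held 13 and 6, 12 and 6, and 12 and 6 IL-1R1 gKO mice. They held 12 and 6, 9 and 5, and 12 and 6 IL-1R1 eRestore mice. For IL-1R1 nRestore they held 6 and 4, 8 and 5, and 6 and 5 mice, all labelled male at 72 h. Each library is a separate mouse.

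Libraries held 14857972 to 57355650 estimated counts, with a median of 20258924.5. Mitochondrial genes made up 4.65% to 9.76% of the counts. The lowest median correlation of a library with its own group was 0.968, in an IL-1R1 eRestore sham mouse at 72 h. The median count of a member ranged from 141.5 for Ehd2 to 1317 for Cav2, and the lowest count of any member in any mouse was 41. Il1r1, the interleukin-1 receptor gene named in 3 of the strain labels, was not lower in the mice labelled IL-1R1 gKO, at 2.39 to 7.86 TPM (median 3.94), than in C57BL/6J mice, at 0.998 to 4.77 TPM (median 2.00). Its medians were 3.09 TPM in the mice labelled IL-1R1 eRestore and 3.83 TPM in those labelled IL-1R1 nRestore. A gene-level value cannot show a change confined to a part of the transcript, and strain names are used below as labels only. In 2 mice labelled male, the sex-linked genes Xist and Ddx3y went against the label. They were an IL-1R1 eRestore sham mouse at 24 h and an IL-1R1 nRestore CHI mouse at 72 h. Leaving these mice out changed the count of members past the threshold in no comparison they belonged to. The 9 h mice came from 3 experiments that held no mouse of a later time point, so 9 h cannot be told apart from experiment or from the time of day at which tissue was taken. At 24 h, 18 of the 43 CHI mice came from an experiment with 1 sham mouse, of C57BL/6J. They included 4 IL-1R1 eRestore, 5 IL-1R1 gKO and 4 IL-1R1 nRestore mice. Part of each CHI difference at 24 h therefore cannot be told apart from experiment.

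The genes lie on 4 chromosomes of the GRCm39 assembly. Cav1 (ENSMUSG00000007655) spans chr6:17306140-17341451 on the plus strand and Cav2 (ENSMUSG00000000058) chr6:17281026-17289877 on the same strand, with no other coding gene between them. Cavin1 (ENSMUSG00000004044) spans chr11:100847559-100861713 on the minus strand and has 2 exons. Cavin2 (ENSMUSG00000045954) lies at chr1:51328266-51345710 on the plus strand. Cavin3 (ENSMUSG00000037060) at chr7:105128391-105131507 and Ehd2 (ENSMUSG00000074364) at chr7:15680874-15701629 are both on the minus strand. An annotated gene on the opposite strand overlaps each of them except Ehd2. The strandedness of the libraries is not given in the sources used here, so reads of such a partner cannot be told apart from those of the member.

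Over all strains at 9 h, Cavin1 was the member that differed most after CHI, and Cav1, its coat partner, the one that differed least. The 250 bases directly upstream of the annotated start of each are printed 5′ to 3′ from the GRCm39 genome. They lie at chr11:100861714-100861963 on the minus strand and chr6:17305890-17306139 on the plus strand.
Cavin1: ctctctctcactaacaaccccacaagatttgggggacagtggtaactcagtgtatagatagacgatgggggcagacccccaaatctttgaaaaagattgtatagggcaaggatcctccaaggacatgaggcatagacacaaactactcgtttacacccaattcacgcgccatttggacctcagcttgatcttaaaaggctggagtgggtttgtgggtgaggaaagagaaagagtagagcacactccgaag
Cav1: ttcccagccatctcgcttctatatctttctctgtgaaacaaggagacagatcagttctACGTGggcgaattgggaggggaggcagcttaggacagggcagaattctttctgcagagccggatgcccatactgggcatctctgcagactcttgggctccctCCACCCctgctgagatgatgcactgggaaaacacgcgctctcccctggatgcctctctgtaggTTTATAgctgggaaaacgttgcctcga
Capitals mark matches, on either strand, to any of 8 short motifs. In the Cav1 window the matches are the hypoxia response core ACGTG, the KLF-type box CCACCC and, on the reverse strand, TATAAA, which occur in 17%, 28.6% and 11.9% of the windows of 21770 genes. The Cavin1 window, with 47.6% G and C bases against a median of 53.2% over all windows, held no match to these or to the other 5 motifs. These were the full palindromic glucocorticoid response element, its arm AGAACA, the GC box GGGCGG, the AP-1 site TGANTCA and the cyclic AMP response element TGACGTCA, which occurs in 1.69% of all windows. AGAACA was found upstream of Cavin2 and Cavin3, in 14.3% of all windows, and GGGCGG upstream of Cav2, Cavin3 and Ehd2, in 36.3%. TGANTCA was found upstream of Cav2 alone among the members, in 6.17% of all windows. A match is a run of letters and was not tested as a binding site.

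Levels were first compared between the members in TPM, a unit of transcript abundance scaled for transcript length and library size. Over the 67 sham mice, Cav2 was the highest, at 33.8 to 57.2 TPM (median 45.5), and it lay above Cavin3 in all 67. Cavin3 held 9.92 to 19.0 TPM (median 14.8), Cav1 6.42 to 22.0 (median 12.7) and Cavin1 6.42 to 17.0 (median 11.1). These 3 neighbours overlapped, with Cavin3 above Cav1 in 44 of the 67 mice and Cav1 above Cavin1 in 52. Cavin2 followed at 4.00 to 13.1 TPM (median 8.68) and was below Cavin1 in 58 mice. Ehd2 was the lowest, at 0.741 to 3.82 TPM (median 2.32), and was below Cavin2 in every sham mouse.

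**Figure D1:**
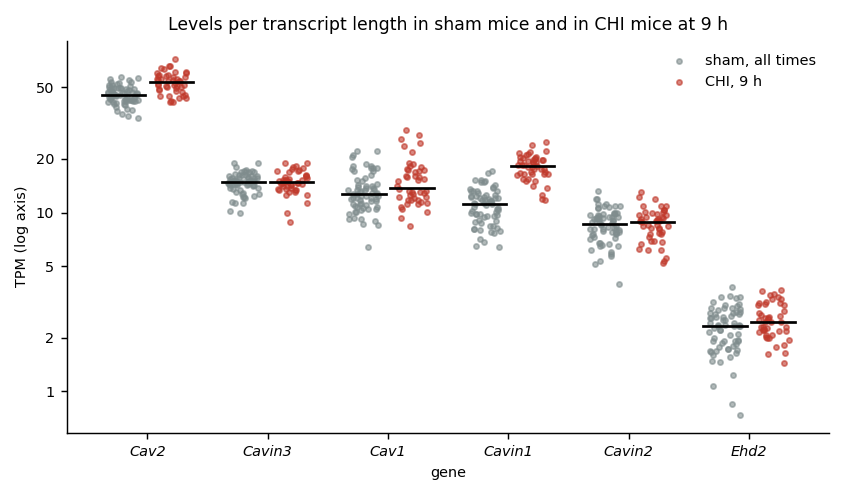
Levels of the 6 caveolae genes in TPM on a log axis, with a point for each mouse and a bar at the median, for the 67 sham mice of all time points (grey) and the 46 CHI mice at 9 h (red). Cav2 is the highest and Ehd2 the lowest in both sets, and the median of Cavin1 is 11.1 TPM in the sham mice and 18.2 TPM in the CHI mice at 9 h.

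The order of the coat genes was different in the CHI mice at 9 h. Cavin1, whose protein (also named PTRF) is required to build the caveolar coat, was above Cav1 in 37 of 46 CHI mice, against 3 of the 22 sham mice at that time. It was above Cavin3 in 38 of the 46 CHI mice and in 3 of the 22 sham mice. The ratio of Cavin1 to Cav1 TPM in C57BL/6J mice had a median of 1.37 after CHI (0.682 to 2.97) and of 0.870 after sham surgery (0.477 to 1.04). In the mice labelled IL-1R1 nRestore the ratios did not overlap, at 1.02 to 1.55 in 6 CHI mice and 0.804 to 0.919 in 4 sham mice. They overlapped in IL-1R1 gKO, at 0.852 to 1.48 after CHI and 0.616 to 1.17 after sham surgery, and in IL-1R1 eRestore, at 0.533 to 1.86 and 0.531 to 1.13, as in C57BL/6J mice. The transcript length that the tables imply for Cav1 differed between mice from 0.487 to 1.30 of its median, which is wider than for any other member, so a Cav1 level per length depends on how reads were shared among its transcripts.

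Cavin1 was the member with the largest difference between CHI and sham mice at 9 h, in each of the 4 strains, and values are in CPM, counts scaled to library size with TMM factors. In C57BL/6J mice it held 16.5 to 24.1 CPM in the 6 sham mice (median 17.6) and 30.7 to 45.0 CPM in the 15 CHI mice (median 35.6). All 15 CHI mice lay above the highest sham mouse. The fitted log2 fold change was 0.91 ± 0.08 (SE), a fold of 1.88.

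In mice labelled IL-1R1 gKO, Cavin1 held 14.1 to 29.8 CPM after sham surgery (median 19.9, n = 6) and 21.0 to 39.5 CPM after CHI (median 32.3, n = 13), a log2 fold change of 0.67 ± 0.11 (SE). The groups overlapped, with 9 of the 13 CHI mice above every sham mouse. In mice labelled IL-1R1 eRestore it held 16.5 to 28.0 CPM (median 23.0, n = 6) and 27.9 to 39.5 CPM (median 35.5, n = 12), a log2 fold change of 0.56 ± 0.10. A single CHI mouse of 12 lay within the sham range. In mice labelled IL-1R1 nRestore the 4 sham mice held 13.8, 16.3, 15.7 and 14.4 CPM and the 6 CHI mice 21.5 to 34.8 CPM (median 26.1), with no overlap and a log2 fold change of 0.91 ± 0.14. Over all 4 strains the log2 fold change at 9 h was 0.73 ± 0.05 (SE), with a 95% interval of 0.62 to 0.83.

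**Figure D2:**
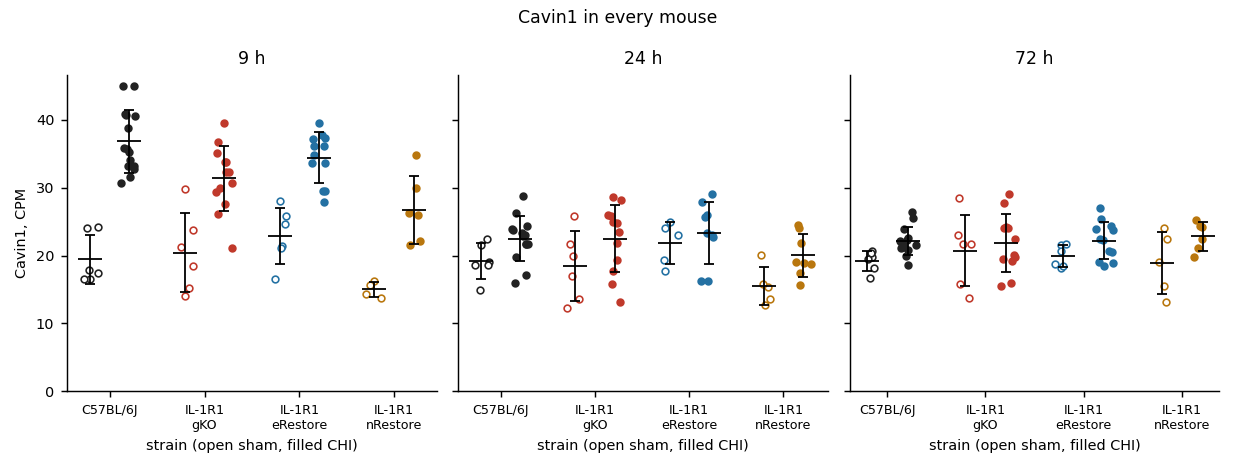
Cavin1 in CPM in each of the 200 mice, by time point (panels), strain (colours) and surgery (open circles sham, filled circles CHI), with the mean and SD of each group. At 9 h all 15 C57BL/6J and all 6 IL-1R1 nRestore CHI mice sit above their sham mice, and at 24 and 72 h the groups overlap in every strain.

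All 3 of the 9 h experiments gave the same direction for Cavin1. Within experiment and strain, the difference of mean log2 CPM between CHI and sham mice was 0.90 and 1.00 in the C57BL/6J mice of 2 experiments. It was 0.44 and 0.81 in mice labelled IL-1R1 eRestore, 0.49, 0.63 and 0.93 in those labelled IL-1R1 gKO, and 0.82 in those labelled IL-1R1 nRestore, all of which came from 1 experiment. The cells behind these values held 2 to 4 sham mice. Fitted alone with strain and sex, the 3 experiments gave log2 fold changes of 0.69 ± 0.07, 0.76 ± 0.09 and 0.88 ± 0.09 (SE).

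By 24 h the difference of Cavin1 was smaller. In C57BL/6J mice the sham range was 15.0 to 22.4 CPM (median 18.8) and the CHI range 15.9 to 28.7 CPM (median 22.9), a log2 fold change of 0.19 ± 0.09 (SE). At 72 h these ranges were 16.8 to 20.6 CPM (median 19.6) and 18.6 to 26.4 CPM (median 22.0), with 12 of 14 CHI mice above all sham mice and a log2 fold change of 0.21 ± 0.07. Over all strains the log2 fold change was 0.16 ± 0.08 at 24 h and 0.18 ± 0.06 at 72 h. The CHI effect at 9 h exceeded that at 24 h by 0.55 (95% interval 0.37 to 0.73) and that at 72 h by 0.57 (0.39 to 0.74) on the log2 scale. At 24 and 72 h the CHI and sham mice of IL-1R1 gKO overlapped, with log2 fold changes of 0.09 ± 0.17 and 0.04 ± 0.15, and in IL-1R1 nRestore the values were 0.38 ± 0.11 and 0.27 ± 0.13. At 24 h, 4 of the 8 IL-1R1 nRestore CHI mice came from an experiment with no sham mouse of that strain and had a mean of 22.4 CPM, against 17.7 CPM in the other 4. Within the experiment of those other 4 and the 5 sham mice, the difference of mean log2 CPM was 0.20.

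The caveolins themselves differed little after CHI. Cav1, the main structural protein of caveolae, held 12.1 to 18.1 CPM in the C57BL/6J sham mice at 9 h (median 13.5) and 9.41 to 18.5 CPM in the CHI mice (median 15.4), a log2 fold change of 0.01 ± 0.10 (SE). Of the 15 CHI mice, 11 lay within the sham range. Over all strains Cav1 had log2 fold changes of -0.00 ± 0.07, 0.07 ± 0.05 and 0.15 ± 0.05 at 9, 24 and 72 h. With gene-length offsets in DESeq2, the value over all strains at 24 h was 0.23 in place of 0.07, and at 9 h it was 0.13.

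Cav2, which forms mixed oligomers with Cav1, held 57.5 to 82.9 CPM in the C57BL/6J sham mice at 9 h (median 66.2) and 61.1 to 84.5 CPM in the CHI mice (median 72.5). Of these 15 CHI mice, 13 lay within the sham range. Over all strains Cav2 had log2 fold changes of 0.14 ± 0.05 (SE), 0.00 ± 0.04 and -0.02 ± 0.05 at 9, 24 and 72 h. By strain at 9 h it ranged from 0.05 ± 0.07 in C57BL/6J to 0.19 in the mice labelled IL-1R1 eRestore and nRestore.

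The other coat and neck genes gave uneven values between strains at 9 h. Cavin2, which helps to bend the membrane, held 7.01 to 18.2 CPM in the C57BL/6J sham mice (median 9.61) and 9.17 to 20.7 CPM in the CHI mice (median 13.7), a log2 fold change of 0.38 ± 0.12 (SE). The highest sham mouse stood at 18.2 CPM and the next at 10.7 CPM. In the strains labelled gKO, eRestore and nRestore the log2 fold changes of Cavin2 were 0.27 ± 0.12, -0.13 ± 0.11 and 0.16 ± 0.14. Cavin3, a coat protein that joins the caveolin complex through Cavin1, stayed between 0.07 and 0.14 in the 4 strains, with standard errors of 0.08 to 0.18.

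Ehd2 held 4.42 to 7.43 CPM in the C57BL/6J sham mice at 9 h (median 5.48) and 4.53 to 9.73 CPM in the CHI mice (median 7.97), with 9 of 15 CHI mice above all sham mice. The log2 fold change was 0.43 ± 0.12 (SE). It was 0.10 ± 0.14 and 0.01 ± 0.18 in the mice labelled IL-1R1 gKO and eRestore. In those labelled IL-1R1 nRestore it was 0.54 ± 0.22, with sham mice at 2.91, 5.16, 4.83 and 3.30 CPM and CHI mice at 4.58 to 6.59 CPM. Without sham replicate 3 it was 1.04 ± 0.27. That mouse was the oldest of these sham mice, at 4 months, and the CHI mice were 3.8 to 4 months old. Age was a covariate of the fit, and its part in this shift was not tested. Over all strains the value of Ehd2 was 0.21 ± 0.09, 0.22 ± 0.07 and 0.21 ± 0.08 at the 3 time points. By strain, in C57BL/6J mice it was 0.28 ± 0.09 at 24 h and 0.08 ± 0.12 at 72 h, and in IL-1R1 nRestore 0.48 ± 0.16 and 0.64 ± 0.20. In IL-1R1 gKO it was 0.04 ± 0.15 and 0.08 ± 0.16, and in IL-1R1 eRestore 0.03 ± 0.16 and 0.15 ± 0.17. Over all strains the 9 h effect on Ehd2 differed from that at 24 h by 0.02 (95% interval -0.21 to 0.24) and from that at 72 h by -0.01 (-0.23 to 0.21). The sham mice at 72 h reached down to 2.30 CPM of Ehd2 in IL-1R1 eRestore and to 2.58 CPM in IL-1R1 nRestore. The library at 2.58 CPM had the highest mitochondrial share of all, 9.76%. The part of these low sham mice in the 72 h value over all strains was not tested.

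**Figure D3:**
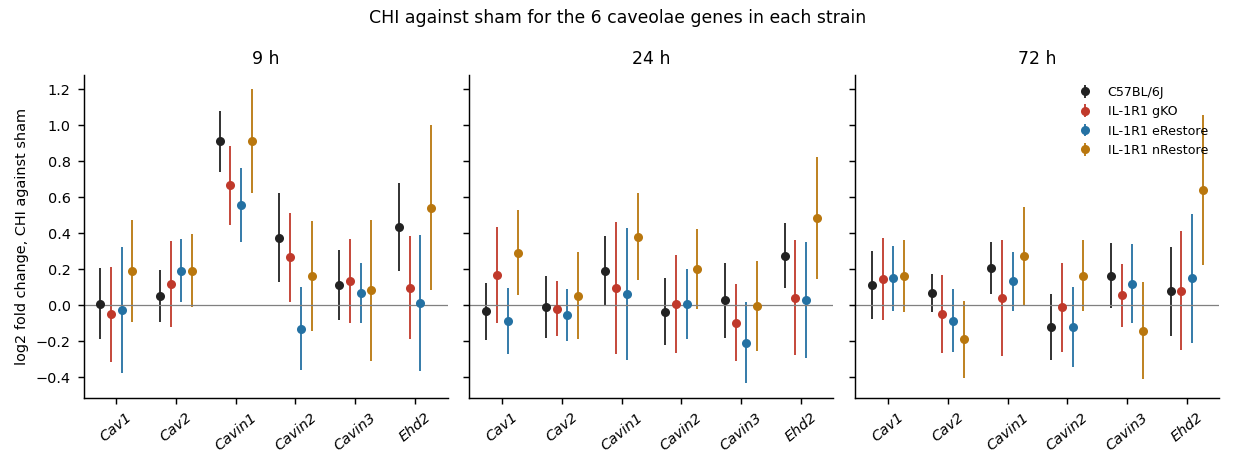
Log2 fold change of CHI against sham for each of the 6 caveolae genes (x axis) at 9, 24 and 72 h (panels), with a point for each strain and bars for the 95% interval. At 9 h the Cavin1 intervals of all 4 strains lie above 0, with points from 0.56 to 0.91, and the Cav1 intervals all span 0.

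An adjusted p under 0.05 in edgeR was reached in C57BL/6J mice at 9 h by 3 of the 6 members, Cavin1, Cavin2 and Ehd2, where 14.1% of all genes tested reached it. Cavin1 alone reached it at 9 h in the strains labelled gKO, eRestore and nRestore, where 0.199%, 7.34% and 0.608% of all genes did. Over all strains at 9 h it was reached by Cavin1 and Cav2, where 23.9% of all genes did. At 24 and 72 h no member reached it in any strain or over all strains, where 0.404% of all genes in C57BL/6J at 24 h, 0.0059% in IL-1R1 gKO at 24 h, 0.00605% in IL-1R1 eRestore at 72 h, 0.0121% in IL-1R1 nRestore at 72 h and 0% in the other single strains did. Over all strains 1.48% of all genes did at 24 h and 0.706% at 72 h. At an unadjusted p under 0.05, 2 members stood past the threshold over all strains at 24 h and 3 at 72 h. Among all genes tested, 2581 of 18495 and 1374 of 18408 did so. The members were chosen from these contrasts, so nothing is read from these counts. Without covariates, Cavin1 did not reach the threshold in the mice labelled IL-1R1 gKO and Cavin2 did not in C57BL/6J mice.

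The CHI effect on the members was also set side by side between strains, first at 9 h, where all comparisons share the C57BL/6J mice. For Cavin1 the effect in the mice labelled IL-1R1 gKO minus that in C57BL/6J mice was -0.25 (95% interval -0.52 to 0.02) on the log2 scale. It was -0.35 (-0.62 to -0.08) for IL-1R1 eRestore and -0.13 (-0.45 to 0.19) for IL-1R1 nRestore. All IL-1R1 nRestore mice at 9 h came from an experiment with no C57BL/6J mouse. They were 3.3 to 4 months old, against 4.4 to 4.8 months in C57BL/6J. Experiment and age therefore cannot be told apart from strain in the 9 h differences of IL-1R1 nRestore. The same experiment gave 6 CHI and 2 sham mice of IL-1R1 gKO, where Cavin1 differed by 0.925 in mean log2 CPM. In the experiments shared with C57BL/6J it differed by 0.625 and 0.489 in IL-1R1 gKO, against 0.901 and 0.995 in C57BL/6J. IL-1R1 gKO mice at 9 h were 3.3 to 5 months old. Part of their 9 h differences thus cannot be told apart from experiment and age either. For Cavin2 and Ehd2, IL-1R1 eRestore minus C57BL/6J was -0.49 (-0.87 to -0.10) and -0.44 (-0.88 to -0.00). For Cav1 the 3 differences lay between -0.09 and 0.16, with intervals that all span 0. At 24 h, IL-1R1 gKO minus C57BL/6J was 0.26 (0.00 to 0.52) for Cav1. At 72 h, IL-1R1 nRestore minus C57BL/6J was 0.58 (0.08 to 1.08) for Ehd2, -0.32 (-0.62 to -0.03) for Cavin3 and -0.28 (-0.56 to -0.00) for Cav2, and all IL-1R1 nRestore mice at 72 h carried a male label. At that time 9 CHI and 3 sham C57BL/6J mice came from an experiment with no IL-1R1 nRestore mouse. Their difference of mean log2 CPM for Ehd2 was -0.074. In the experiments that held both strains it was 0.032 and 0.784 in C57BL/6J, each with 1 sham mouse. In IL-1R1 nRestore it was 0.812 and 0.645 there. These strain differences at 72 h cannot be told apart from experiment. The other member intervals at 24 and 72 h span 0. Over all genes, 0%, 0.0107% and 0.00534% passed an adjusted p under 0.05 in edgeR for the 9 h differences of gKO, eRestore and nRestore, and no member was among them. At 24 h the shares were 0.00541%, 0.0108% and 0% and at 72 h 0%, 0% and 0.00543%, again with no member. For the differences between time points, 9.63% of all genes passed for 9 against 24 h, with 1 member (Cavin1), 11.8% for 9 against 72 h, with 2 (Cavin1 and Cav2), and 0.0249% for 24 against 72 h, with 0. These strain and time differences are made of the values from which the members were chosen, so nothing is read from their counts either.

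Comparisons that were not among the contrasts behind the choice of members were tested. Those between sham mice and those of the CHI effect between sexes reuse values from these contrasts. They are therefore not fully independent of the choice. In sham mice of the 3 time points together, no member passed an adjusted p under 0.05 between C57BL/6J and any other strain in edgeR with sex and experiment by time point as terms. Of all genes 4.53% passed for IL-1R1 gKO, 5.05% for IL-1R1 eRestore and 2.06% for IL-1R1 nRestore. The member differences lay between -0.19 and 0.17 on the log2 scale, with adjusted p from 0.269 upwards. At an unadjusted p under 0.05 this left 1 member, Cavin1 in IL-1R1 eRestore, with 0.17 ± 0.08 (SE). Of 18994 genes tested, 3024, 3315 and 2334 had such a p for gKO, eRestore and nRestore. In DESeq2 no member passed either. Ehd2 held a median of 1.67 TPM in the sham mice labelled IL-1R1 nRestore and 2.20 in those of C57BL/6J, and its difference of -0.19 ± 0.13 became -0.45 and passed the threshold (adjusted p = 0.00614 in edgeR) when experiment was left out of the fit.

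Between sham mice at 24 and 72 h no member passed in edgeR or DESeq2, with log2 differences of -0.07 to 0.04 and adjusted p from 0.943 upwards in edgeR. No member had an unadjusted p under 0.05, which 1205 of 18994 genes had, and 0% of all genes passed the adjusted threshold. Between sham mice at 9 and 24 h, Cav2 was higher at 9 h by 0.20 ± 0.06 (SE) on the log2 scale (adjusted p = 0.0084 in edgeR). The other 5 members did not pass, at -0.13 to 0.08. In that contrast 45.9% of all genes passed, and experiment and time of day differ with it and cannot be told apart from the time since surgery.

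No member passed between male and female mice over the 200 mice, with male minus female values of 0.00 to 0.07 on the log2 scale (adjusted p from 0.585 upwards in edgeR), where 0.363% of all genes passed. Cavin1, at 0.07 ± 0.04 (SE), was the one member with an unadjusted p under 0.05, which 1691 of 20111 genes had. The test of a CHI effect that differs between the sexes was passed by no member at 9, 24 or 72 h, with differences of -0.26 to 0.14, adjusted p from 0.918 upwards and no unadjusted p under 0.05. Of all genes 0%, 0% and 0.00543% passed it. An unadjusted p under 0.05 was found for 429 of 18741, 973 of 18495 and 699 of 18408 genes. For Cavin1 at 9 h, the male effect minus the female effect was -0.07 (95% interval -0.28 to 0.14). In C57BL/6J mice at 9 h, Cavin1 held 16.5, 16.6 and 17.4 CPM in the 3 female sham mice against 30.7 to 40.5 in 7 female CHI mice. It held 17.9, 24.0 and 24.1 CPM in the 3 male sham mice against 33.1 to 45.0 in 8 male CHI mice.

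Most relatives of the coat had smaller values than Cavin1 at 9 h. This list and that of caveolar transport and signalling below were chosen with earlier results of these data known. Their counts and adjusted p are therefore given as a description and are no independent evidence. The list of coat relatives holds the muscle forms Cav3 and Cavin4, the Pacsin, Ehd and flotillin genes, Dnm2 and Stom, and 2 of its 12 tested genes passed the threshold over all strains, both higher after CHI, with a list median of 0.05 against -0.00 over all genes. Of all genes 12% passed as higher and 11.9% as lower. These were Ehd3, with a log2 fold change of 0.34 ± 0.04 (SE, adjusted p = 1.39e-10 in edgeR), and Ehd1, with 0.11 ± 0.04 (adjusted p = 0.0378 in edgeR), which both code for ATPases of endocytic recycling. Without the filter on low counts, Ehd1 had an adjusted p of 0.0556 in edgeR. The remaining 10 genes ranged from -0.10 for Cavin4 to 0.73 for Cav3, whose standard error was 0.46.

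Among 12 genes of caveolar transport and signalling, 4 rose and 1 fell at 9 h over all strains, with a median of -0.01. In that contrast 12% of all genes passed as higher and 11.9% as lower. Mfsd2a, the lipid transporter that holds caveolar transport across brain endothelium low, rose by 0.55 ± 0.08 (SE, adjusted p = 1.31e-07 in edgeR) on the log2 scale. Scarb1, a lipoprotein receptor, rose by 0.23 ± 0.06 (adjusted p = 0.00315 in edgeR), Src, a kinase that phosphorylates caveolin-1, by 0.15 ± 0.04, and the insulin receptor Insr by 0.11 ± 0.03. Cd36, a fatty acid transporter, fell by 0.48 ± 0.18 (adjusted p = 0.0439 in edgeR). Plvap, which marks the diaphragms of caveolae in leaky vessels, was 0.16 ± 0.09, and Nos3, the endothelial nitric oxide synthase held by caveolin-1, was -0.09 ± 0.07, and neither passed. At 24 and 72 h no gene of either list passed, where 1.48% and 0.706% of all genes did. Counted within single experiments or without C57BL/6J mice, 2 or 3 genes of both lists together passed at 9 h in place of 7, and without the IL-1R1 eRestore mice 4 did.

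**Figure D4:**
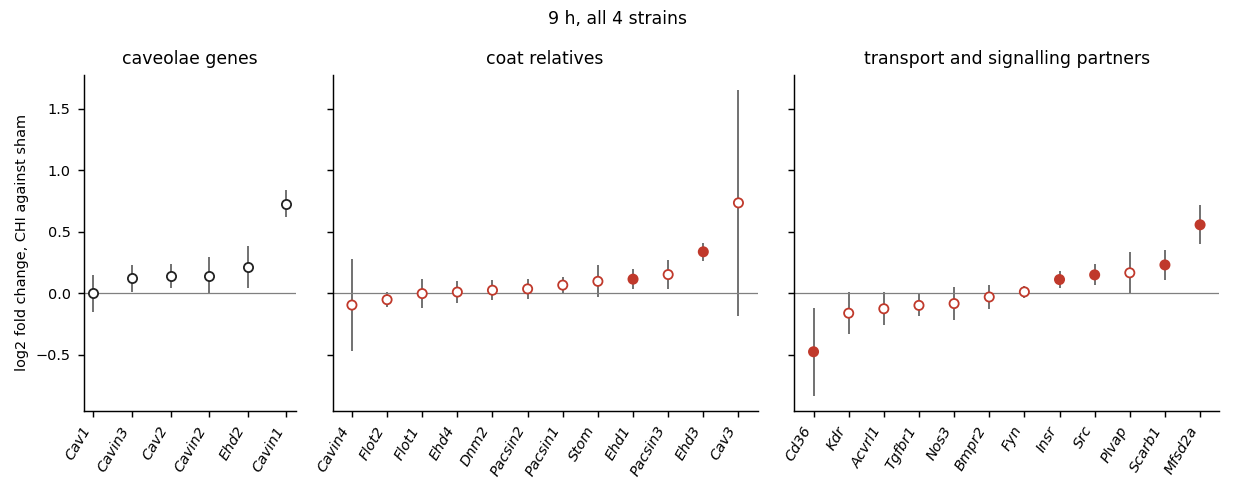
Log2 fold change of CHI against sham at 9 h over all 4 strains, with 95% intervals, for the caveolae genes (black, chosen from this contrast and not marked for significance), the 12 coat relatives and the 12 transport and signalling partners (red, filled where the adjusted p in edgeR was under 0.05). Cavin1 and Cav3 are highest, both at 0.73, Cav3 with the widest interval, followed by Mfsd2a at 0.55 and Ehd3 at 0.34, and Cd36 at -0.48 is the lowest. The lists of relatives and partners were also chosen with earlier results of these data known.

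The cells that hold caveolae were followed by marker lists, since in bulk tissue fewer cells of a type and less RNA per cell cannot be told apart. At 9 h over all strains the 16 endothelial markers had a median log2 fold change of -0.02, with 4 genes higher and 4 lower past the threshold, and the 8 pericyte markers one of -0.01, with 2 higher and 1 lower. Of all genes 12% passed as higher and 11.9% as lower in that contrast. The 8 markers of vascular smooth muscle had a median of -0.07, with 1 higher and 2 lower. Markers of fibroblasts and meninges had a median of -0.57, with 5 of 8 lower and 1 higher. Their summed level at 9 h was 16.2 to 76.5 TPM in CHI mice (median 29.7) and 18.8 to 206 TPM in sham mice (median 42.2). None of the endothelial, pericyte or fibroblast markers was at 0 in any mouse, and Cnn1 was the one smooth muscle marker that was. Microglial markers had a median of -0.20, with 5 of 8 lower, and the 8 astrocyte markers one of 0.01, with 3 higher. Choroid plexus markers had a median of -1.44, with 5 of 6 lower and sums of 5.98 to 2519 TPM in CHI and 9.54 to 6250 TPM in sham mice, and the 5 blood markers tested one of 1.17, with none past the threshold. The 8 neuronal, 8 oligodendrocyte and 6 ependymal markers had medians of 0.06, -0.07 and -0.23, with 1, 0 and 0 higher and 1, 1 and 2 lower. The part of these shifts in the members' values was not tested.

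Across mice of the same strain, surgery and time point, the members were closest to different marker lists. Deviations of log2 CPM from the group mean were correlated over 200 mice with the mean deviation of each of 11 lists, and these points share library, depth and dissection, and a group held mice of 1 to 4 experiments. Cav1 was closest to the endothelial list (Pearson's r = 0.655, Spearman's rho = 0.578) and Ehd2 likewise (r = 0.578, rho = 0.566). Cavin1 was closest to the list of fibroblasts and meninges (r = 0.615, rho = 0.618), with r of 0.337, 0.777 and 0.707 at 9, 24 and 72 h. Cav2 was closest to astrocytes (r = 0.555, rho = 0.533) and microglia (r = 0.529, rho = 0.539), and its r with the endothelial list was 0.115 (adjusted p = 0.272 in a permutation test). The 5 relations named before the last had a permutation p of 1e-05, the smallest that 100000 permutations within groups can give, for r and for rho, and an adjusted p of 3.3e-05 for r and 3.67e-05 for rho over 66 relations. Without the 2 mice farthest from the median of the member, r was 0.648, 0.571, 0.62, 0.536 and 0.502 in the same order. Levels differed between experiments, with Cav1 in IL-1R1 gKO CHI mice at 9 h at a mean of 19.3 CPM in one and 13.1 CPM in the other two. With deviations taken and permuted within the 46 combinations of group and experiment that held more than 1 mouse, a choice made after seeing the data, r was 0.493 for Cav1 and 0.469 for Ehd2 with the endothelial list, and 0.46 for each with fibroblasts and meninges. It was 0.588 for Cavin1 with fibroblasts and meninges, and 0.539 and 0.484 for Cav2 with astrocytes and microglia. All 7 had a permutation p of 1e-05, with rho of 0.408, 0.407, 0.394, 0.41, 0.57, 0.503 and 0.446 and adjusted p of 4.4e-05 for r and 5.5e-05 for rho. Cav1 and Ehd2 were not close to vascular lists alone. With neurons each had r = 0.444 over the 200 mice, and 0.2 and 0.242 within group and experiment. Over the 200 mice Cavin2 was closest to fibroblasts and meninges (r = 0.269), with choroid plexus next (r = 0.263), and Cavin3 to microglia (r = 0.423). Within group and experiment Cavin2 was closest to the endothelial list (r = 0.364), with 0.272 for fibroblasts and meninges and 0.259 for choroid plexus. Cavin3 stayed closest to microglia there (r = 0.454). Whether a member's r differs between lists was not tested.

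**Figure D5:**
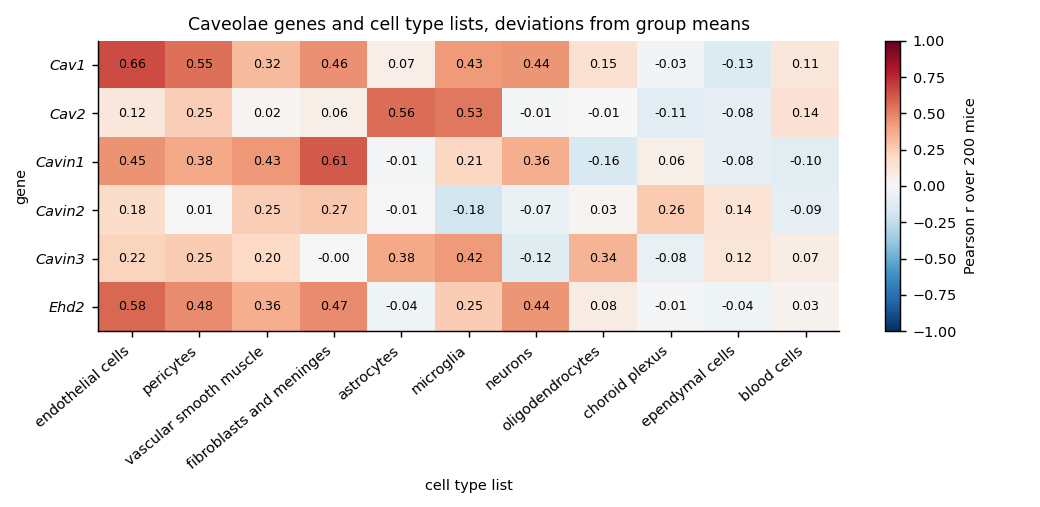
Pearson's r over 200 mice between each caveolae gene (rows) and the mean of each cell type list (columns), both as deviations of log2 CPM from the mean of the mouse's group, on a colour scale from -1 to 1. Cav1 and Ehd2 are highest in the endothelial column, Cavin1 in the column of fibroblasts and meninges, and Cav2 in the astrocyte and microglia columns.

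Of the 15 pairs of members, Cav1 and Ehd2 varied together most (r = 0.643, rho = 0.643), with r of 0.866, 0.471 and 0.473 at 9, 24 and 72 h. Cavin1 followed Ehd2 (r = 0.45, rho = 0.472) and Cav1 (r = 0.397, rho = 0.395). These 3 pairs each had a permutation p of 1e-05, the smallest possible, and an adjusted p of 5e-05 over the 15 pairs, for r and for rho alike. Without the 2 mice farthest from the median of the first gene named, r was 0.609 for Cav1 and Ehd2, 0.454 for Cavin1 and Ehd2 and 0.43 for Cav1 and Cavin1. Cav1 and Cav2, which lie next to each other on chromosome 6, had r = 0.333 and rho = 0.302 (permutation p = 2e-05 and 6e-05, adjusted p = 7.5e-05 and 0.000225), with r of 0.519 at 9 h and of 0.158 and 0.173 at the later times. Cavin2 had an r of -0.004 with Cav1 and of -0.001 with Ehd2. Within the same 46 combinations of group and experiment, r was 0.512 for Cav1 and Ehd2 (0.741, 0.447 and 0.349 at the 3 times), 0.493 for Cavin1 and Ehd2, 0.441 for Cav1 and Cavin1 and 0.35 for Cav1 and Cav2, with rho of 0.493, 0.454, 0.362 and 0.301. The permutation p for r was 1e-05 for the first 3 and 5e-05 for the last, with adjusted p of 5e-05 and 0.000187, and for rho the largest adjusted p of the 4 was 0.00165.

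Genes with the most similar pattern were named by Pearson's r with the mean of the 6 scaled members, among genes with a mean of at least 1 CPM. Over the 24 group means these were Ptges (r = 0.814), Vim (0.806), Mmp19 (0.789), Runx1 (0.782) and Msn (0.781). Over deviations of 200 mice they were Vtn (0.748), Islr (0.627), Vim (0.627), Bgn (0.626) and Slc3a2 (0.623), of which Vtn is a pericyte marker in the lists above. For Cavin1 alone, a choice made after its values were seen, the closest over group means were C3ar1 (0.918), Hmox1 (0.912), Runx1 (0.899), Golm1 (0.899) and Cd14 (0.898), and over deviations Islr (0.667), Itih2 (0.632), Gjb2 (0.63), Vtn (0.627) and Col1a2 (0.619).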

How the data were processed

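RNA of 200 mouse brains was sequenced. Per the study's methods and labels, the authors used the nf-core/rnaseq pipeline, in which STAR aligned reads (build GRCm39) and Salmon estimated transcript abundance, and the annotation release and strandedness are not given in the sources used here. The authors deposited estimated counts per gene (not normalized) and TPM values, which are scaled for length and depth. All 200 columns were mapped to mice by the labels.

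Estimated counts were rounded and tested over all genes in R 4.3.3 with edgeR 4.0.16 (TMM, robust quasi-likelihood F test), after a filter of 10 or more counts in a number of mice equal to the smallest group. Sex and age were covariates. P-values were adjusted by Benjamini–Hochberg over all genes tested, at a threshold of 0.05, and the standard error was taken from the F statistic. DESeq2 1.42.0 was an alternative. The study names DESeq2 with gene-length offsets, which was therefore also run. On simulated C57BL/6J mice at 9 h, with 16744 genes of which 200 changed by a log2 fold change of 1, edgeR recovered 198 and called 6 unchanged genes. For IL-1R1 nRestore at 9 h, with 16532 genes, it recovered 170 and called 9. In both, the changed genes were drawn only from genes with higher expected counts, and smaller changes were not simulated. Correlation tests permuted mice within groups and, as a choice made after seeing the data, within group and experiment. Genes outside the 6 members were named where they passed the threshold in 2 fixed lists, stood at the end of a list or were closest in pattern. Members and lists were chosen with earlier results of these data known. Promoter windows came from the GRCm39 genome and GENCODE vM39. Alternatives were another test, normalization, filter and covariates, and leaving out mice. Standard errors and intervals cover the spread between mice.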

Additional observations from a re-analysis of the deposited data

Results flagged for a closer look

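Of 96 groups of 4 to 10 mice examined for 1 mouse far from the rest (6 members in 16 groups), 4 held such a mouse, and chance alone gives about 1 in 20. Cavin2 in the C57BL/6J sham mice at 9 h had a highest mouse at 18.2 CPM, with the next at 10.7 and the lowest at 7.01 CPM (n = 6). In the CHI mice labelled IL-1R1 nRestore at 24 h (n = 8), Cavin2 had a highest mouse at 19.8 CPM, with the next at 15.8 CPM, and Cav1 a highest mouse at 19.3 CPM, with the next at 15.9 CPM. The 2 values came from different mice. Ehd2 in the sham mice labelled IL-1R1 nRestore at 24 h had a highest mouse at 6.61 CPM, with the other 4 at 4.06 to 4.41 CPM. No Cavin1 group held one. No difference of the CHI effect between sexes passed the test for any member.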

How the results depend on the processing

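Cavin1 at 9 h over all 4 strains kept its direction in all 14 alternatives, with log2 fold changes of 0.65 to 0.88, and in C57BL/6J mice it stayed at 0.91. No paired analysis was possible because the replicate numbers only follow accession order. Members past the threshold numbered 0 in place of 1 for IL-1R1 gKO at 9 h without covariates, 1 in place of 2 over all strains at 9 h within each of 3 experiments and without IL-1R1 nRestore, and 1 in place of 0 over all strains at 72 h without IL-1R1 gKO. For sham IL-1R1 nRestore against C57BL/6J, leaving experiment out of the fit gave 1 in place of 0, and turned Cav1 to -0.11 and Cavin1 to -0.23. The 24 other caveolar genes had 2, 3 and 2 past the threshold at 9 h within the 3 experiments, 2 without C57BL/6J and 4 without IL-1R1 eRestore, in place of 7. The fits of single experiments at 9 h, without a strain and without the mice of doubtful sex label were chosen after seeing the data. Values near 0 changed sign. Male minus female became -0.0029 for Cavin2 with experiment by time point in place of age and -0.00027 for Cavin3 without the mice of doubtful sex label. The sex difference of the CHI effect on Cav1 at 9 h became 0.0040 with experiment in place of age. Sham 24 minus 72 h became 0.0017 (no filter) and 0.0046 (without those mice) for Cav1, and, within the experiment with most sham mice, 0.042 for Cavin1, -0.17 for Cavin2, -0.022 for Cavin3 and -0.088 for Ehd2. In IL-1R1 nRestore at 9 h, without sham replicate 3, Cavin1 was 1.16 and Ehd2 1.04. That mouse was the oldest sham mouse of its group, and age was a covariate of this fit. With gene-length offsets in DESeq2, Cav1 was 0.19 in C57BL/6J and 0.42 in IL-1R1 gKO at 24 h and 0.37 in IL-1R1 nRestore at 9 h. Leaving out 1 mouse gave 0 members past the threshold in IL-1R1 eRestore at 24 h and in IL-1R1 nRestore at 24 and 72 h, and 1 in IL-1R1 nRestore at 9 h, each time. The causes were not tested. Over all genes, the count past the threshold was 67 (51 to 333 over the alternatives planned at the start) in C57BL/6J at 24 h and 0 (0 to 41) at 72 h. It was 33 (21 to 218) and 0 (0 to 3) in IL-1R1 gKO at 9 and 72 h, 1222 (736 to 1991), 0 (0 to 93) and 1 (0 to 16) in IL-1R1 eRestore, and 102 (97 to 806), 0 (0 to 5) and 2 (1 to 11) in IL-1R1 nRestore. It was 391 (391 to 2763) for sham IL-1R1 nRestore and 0 (0 to 5) for sham 24 against 72 h. As a share of genes tested it was 0.0059% (0% to 0.743%) in IL-1R1 gKO at 24 h, 1.48% (0.593% to 2.7%) over all strains at 24 h and 0.363% (0.283% to 0.393%) for sex. With single experiments or with a strain left out, the count over all strains was 442 to 4493 at 9 h, against 4483 with all mice, 42 to 323 at 24 h and 53 to 135 at 72 h. Ehd2, with a lowest count of 41, is the member that depth limits most.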
